A study of Mus musculus with 5 samples.

Results

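Natural killer receptors and cytotoxic granule genes were described in sorted brain dendritic cells (brain DC) against bone marrow monocytes. The set held 10 genes, Klrd1, Klrk1, Nkg7, Gzma, Gzmb, Prf1, Ncr1, Il2rb, Ctla2a and Ctla2b, out of 18193 genes with a value. They were read from 12 probe sets annotated to exactly 1 of these symbols, out of 34945 probe sets with 1 symbol. The genes were chosen by earlier results of the same comparison, brain DC against monocyte, so the differences of the 10 genes are given as a description, with no test. All 10 had a value, and no filter on low values was applied.

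Natural killer cells kill infected and tumour cells without prior priming. Activating and inhibitory receptors on their surface read ligands on a target cell, and many of these receptors also occur on T cell subsets. On contact, granules release perforin, which opens the target membrane, and granzymes, which are proteases that start cell death. Dendritic cells take up, process and present antigen, and the brain holds few of them outside the meninges and choroid plexus.

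Brain DC were sorted as Lin- CD45hi CD11c+ cells (2 arrays), and bone marrow monocytes as SSClo CD11bhi CD115+ cells (3 arrays). Both came from female C57BL/6 mice of 6 to 8 weeks. The mice that gave brain DC had carried a subcutaneous B16-Flt3L tumour, whose name holds the DC growth factor Flt3 ligand, implanted 12 days before harvest, and the labels name no treatment for the monocyte mice. Tissue, sort gate and tumour therefore differ together and cannot be told apart. The labels do not list the markers in Lin, nor say whether arrays of a group came from separate mice, so p-values here cover the array-to-array spread alone, which can be technical. The series also names microglia and spleen DC, which were not analysed here.

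Each deposited value is a log2 value centred within its probe set on an unstated baseline. Differences between arrays can be read, while levels of different genes, and whether a gene is detected, cannot. A difference of 1 is a 2-fold change. Sorted cells were measured in bulk, so fewer cells of a type and less RNA per cell cannot be told apart. Marker genes were read beside the DC labels. The lists were chosen with earlier results of these data known, so they are no independent check of the labels. All 5 conventional DC markers (one of them, Itgax, encodes the sorted CD11c) and all 8 type 1 DC markers were called higher in brain DC, with median differences of 3.06 and 4.01. Of 7 monocyte markers, 6 were called lower, among them the genes of the sorted CD11b and CD115. Of 7 microglial markers, 6 were called higher in brain DC. Labelling spike-in probe sets stood apart too, with 24 of 24 higher in the brain DC arrays and a median difference of 2.59. Their part in the results was not tested.

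Of the 10 genes, 6 lay past the limma threshold (adjusted p under 0.05 over all genes) in the direction of brain DC, and 0 in the direction of monocytes. The background was 16.9% of all genes called higher and 16.9% called lower. In 8 of the 10 genes both brain DC arrays lay above all 3 monocyte arrays, against a background of 35.1%, and none lay below, against 25.0%. By probe set, 7 of 12 lay apart in this way, against 31.2%. The comparison chose the genes, so nothing is read from these counts. The median difference of the 10 genes was 2.16, against 0.09 over all genes.

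**Figure D1:**
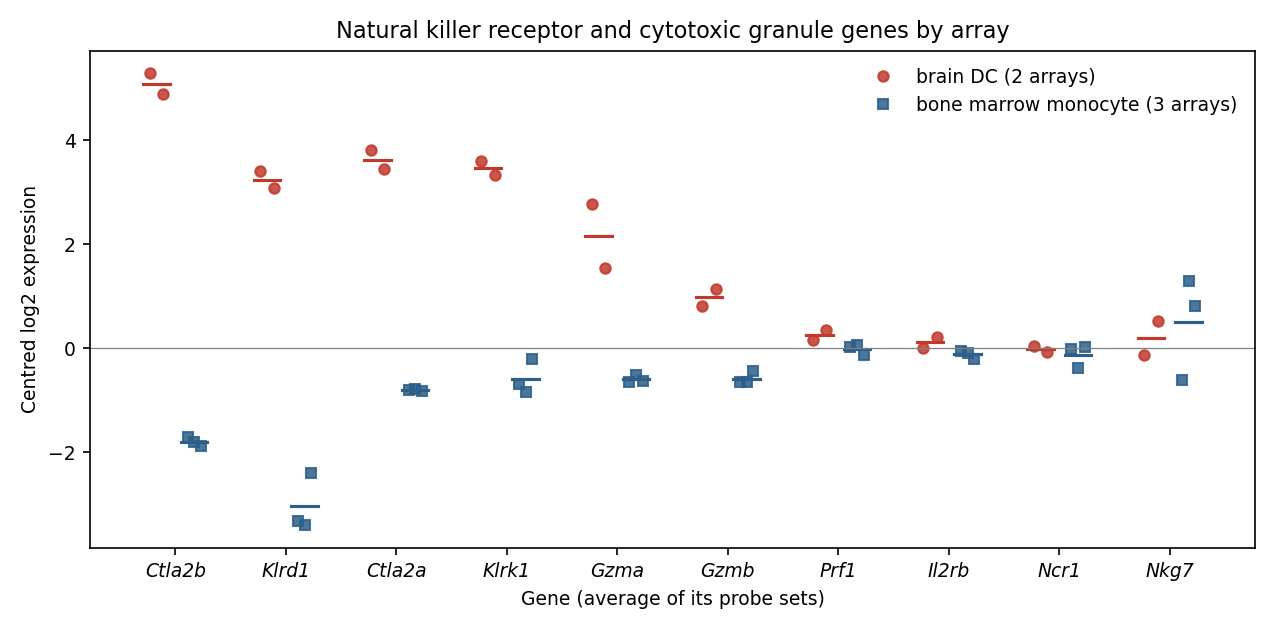
Deposited log2 value (centred per probe set) of each of the 10 genes, averaged over its probe sets, in each brain DC array (red circles) and each monocyte array (blue squares), with lines at the group means. In Ctla2b, Klrd1, Ctla2a, Klrk1, Gzma and Gzmb the brain DC arrays lie clear of the monocyte arrays, while those of Ncr1 and Nkg7 overlap them.

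Among the receptors, Klrd1 and Klrk1 differed widely and Ncr1 did not. Klrd1 encodes CD94, a lectin-like chain that pairs with NKG2 chains to read the non-classical MHC molecule Qa-1. Its values were 3.41 and 3.08 in brain DC, against -3.33, -3.41 and -2.40 in monocytes. The groups lay far apart, with monocyte replicate 3 above the other monocyte arrays. The difference was 6.29 ± 0.30 (SE), or 78.1-fold, and ranked 7 among the 18193 genes. Klrk1 encodes NKG2D, an activating receptor for ligands that stressed and transformed cells display. It had 3.61 and 3.33 in brain DC, against -0.70, -0.85 and -0.21 in monocytes, a difference of 4.06 ± 0.21 or 16.6-fold. For Klrk1, as for Klrd1, monocyte replicate 3 was the highest of the 3, and every brain DC value was above it. The range over monocytes was 1.01 in Klrd1, a width reached by 1.62% of genes.

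Ncr1 encodes NKp46, an activating receptor found on natural killer cells and some innate lymphoid cells. Its values were 0.03 and -0.07 in brain DC, against -0.01, -0.39 and 0.03 in monocytes. The groups overlapped, and the difference was 0.10 ± 0.16. Il2rb, the beta chain through which interleukin 2 and interleukin 15 signal, was at 0.00 and 0.22 in brain DC, against -0.06, -0.09 and -0.20 in monocytes. The gene averages of Il2rb were apart by a narrow margin, with a difference of 0.23 ± 0.13. Neither of its probe sets separated the groups, with differences of 0.12 and 0.34.

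Promoter windows of receptors with unlike differences are printed for comparison, each covering the 250 bases before the annotated start, from RefSeq (GRCm38.p6), 5′ to 3′. RefSeq windows were matched for 8 of the 10 genes; Klrd1 and Il2rb had none in the table used. Both strands were searched for TGTGGT (the RUNX core), TGANTCA (AP-1), TGACGTC (the cyclic AMP response core) and GGTGTGA (T-box), and these letters were chosen after the windows had been read. Capitals mark matches, so ACCACA is TGTGGT on the other strand, and 0 matches overlapped each other.
Klrk1 promoter window, chr6:129623865-129624114, minus strand: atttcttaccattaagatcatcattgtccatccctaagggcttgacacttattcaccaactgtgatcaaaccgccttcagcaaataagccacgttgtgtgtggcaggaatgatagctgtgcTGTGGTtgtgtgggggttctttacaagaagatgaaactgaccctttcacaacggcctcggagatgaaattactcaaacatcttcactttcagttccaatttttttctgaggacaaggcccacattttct
Ncr1 promoter window, chr7:4337465-4337714, plus strand: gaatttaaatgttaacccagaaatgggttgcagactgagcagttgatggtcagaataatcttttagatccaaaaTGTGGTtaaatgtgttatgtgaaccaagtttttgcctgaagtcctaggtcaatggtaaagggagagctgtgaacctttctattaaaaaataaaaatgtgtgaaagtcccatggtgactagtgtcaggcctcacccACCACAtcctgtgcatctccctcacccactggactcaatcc
TGTGGT stood in the windows of 6 of the 8 genes, Klrk1, Nkg7, Gzma, Gzmb, Prf1 and Ncr1. The background was 14.0% of the 32851 windows of this length that were searched, which did not cover every chromosome. Klrk1, with a wide difference, had it once, and Ncr1, whose groups overlapped, at 2 places. A match of letters is a description and not a site at which a factor was measured. Because the letters were chosen after these windows had been read, nothing is read from the shares of any of these motifs.

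Of the granule genes, the granzymes A and B were higher in brain DC arrays, while perforin and Nkg7 showed no clear separation. Gzma encodes the tryptase granzyme A. Its values were 2.77 and 1.55 in brain DC, against -0.64, -0.52 and -0.62 in monocytes. The monocyte arrays lay close together and the brain DC arrays apart by 1.22, a gap matched by 0.517% of genes. The difference was 2.75 ± 0.31 or 6.73-fold. It was 2.14 without brain DC replicate 1 and 3.36 without brain DC replicate 2. Gzmb encodes granzyme B, which cleaves after aspartate and activates caspases. It had 0.81 and 1.14 in brain DC, against -0.65, -0.66 and -0.45 in monocytes, and here replicate 2 was the higher brain DC array. The difference was 1.56 ± 0.15 or 2.96-fold.

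Prf1 encodes perforin, and its 2 probe sets pointed in opposite directions. One had 0.57 and 0.71 in brain DC, against 0.09, -0.32 and -0.23 in monocytes. The other had -0.25 and -0.00 in brain DC, against -0.02, 0.44 and -0.05 in monocytes. The first probe set separated the groups, with a difference of 0.80, and the second did not, with -0.25. Averaged, the gene difference was 0.27 ± 0.14. Nkg7, a membrane protein of cytotoxic granules, was at -0.13 and 0.53 in brain DC, against -0.61, 1.30 and 0.82 in monocytes. The groups overlapped, and its difference of -0.30 ± 0.51 was the lowest of the 10 genes. It was 0.03 without brain DC replicate 1 and 0.09 without monocyte replicate 2, so its sign rests on single arrays. Its monocyte range of 1.91 was matched by 0.0824% of genes.

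The Gzmb window is shown because it held the most matches among the 8 genes.
Gzmb promoter window, chr14:56262335-56262584, minus strand: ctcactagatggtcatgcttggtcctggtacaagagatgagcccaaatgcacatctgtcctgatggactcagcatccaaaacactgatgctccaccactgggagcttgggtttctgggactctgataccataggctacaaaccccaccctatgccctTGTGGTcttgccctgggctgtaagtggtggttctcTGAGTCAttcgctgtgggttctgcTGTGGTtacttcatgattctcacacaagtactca
TGTGGT begins at -93 and at -34 relative to the start, and TGAGTCA, an AP-1 match, at -58. The AP-1 letters stood in 3 of the 8 genes, Gzmb, Ctla2a and Ctla2b, against 6.75% of the windows searched. GGTGTGA stood in 1 gene, Nkg7, against 3.33%.

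Ctla2a and Ctla2b were first found in activated T cells and resemble the propeptide of cysteine proteases, and the Ctla2a protein inhibits cathepsin L. Ctla2b had 5.29 and 4.89 in brain DC, against -1.71, -1.81 and -1.88 in monocytes. Replicates of both groups were close, and the difference of 6.89 ± 0.16 or 119-fold ranked 6 among all genes. Ctla2a had 3.81 and 3.44 in brain DC, against -0.80, -0.79 and -0.82 in monocytes. The groups were again far apart, by 4.43 ± 0.15 or 21.6-fold, rank 52. Near-identical copies can share probe signal, and 1 further probe set annotated to both genes lies outside the rule. It had 2.63 and 1.98 in brain DC, against -2.39, -2.70 and -2.50 in monocytes. The windows of both genes are printed because the copies are alike and both lay far apart between the groups.
Ctla2b promoter window, chr13:60897448-60897697, minus strand: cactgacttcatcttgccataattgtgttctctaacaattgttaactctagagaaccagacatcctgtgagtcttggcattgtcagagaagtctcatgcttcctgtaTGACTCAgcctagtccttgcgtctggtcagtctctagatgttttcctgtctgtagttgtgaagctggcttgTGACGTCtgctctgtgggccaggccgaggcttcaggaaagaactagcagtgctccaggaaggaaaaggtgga
Ctla2a promoter window, chr13:60936626-60936875, minus strand: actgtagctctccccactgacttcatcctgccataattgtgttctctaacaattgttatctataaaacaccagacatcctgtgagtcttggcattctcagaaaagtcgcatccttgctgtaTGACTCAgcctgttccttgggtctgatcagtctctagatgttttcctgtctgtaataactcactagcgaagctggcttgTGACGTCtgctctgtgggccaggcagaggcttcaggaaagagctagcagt
Aligned, the windows shared 209 of 228 paired bases (91.7%) and differed at 19, with gapped positions not counted. Each held 1 AP-1 match and 1 TGACGTC, which stood in these 2 of the 8 genes and in 2.78% of the windows searched. TGTGGT was in neither.

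The genes varied between the brain DC arrays without a common direction. Values were higher in brain DC replicate 1 for 6 genes (Ctla2b, Klrd1, Ctla2a, Klrk1, Gzma and Ncr1) and in replicate 2 for 4 (Gzmb, Prf1, Il2rb and Nkg7). The median size of this gap was 0.33, against 0.19 over all genes. A gap of 1 or more was seen in 1 of the 10 genes, Gzma, and in 1.24% of all genes. Among other natural killer receptors 3 of 22 reached it, Klre1, Klra7 and Crtam, and among other granule and killing genes 2 of 26, Ifng and Cst7. For Klre1 the brain DC values were 1.97 and 0.24, with all monocyte arrays below both.

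**Figure D2:**
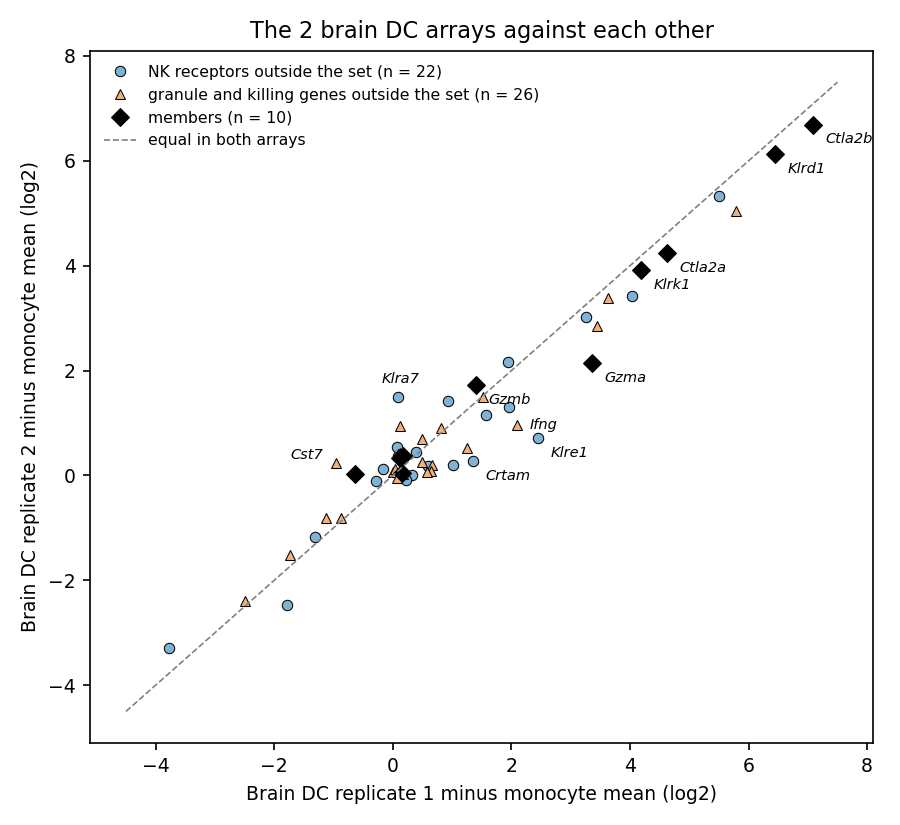
Each brain DC array minus the monocyte mean (log2), replicate 1 across and replicate 2 up, for the 10 genes (diamonds), 22 other natural killer receptor genes (circles) and 26 other granule and killing genes (triangles); the dashed line marks equal values. Gzma and Klre1 lie below the line, being higher in replicate 1, and Klra7 lies above it.

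Other genes of the same pathways were taken from lists, and tested with limma over all genes. The background for these counts was 16.9% of all genes called higher and 16.9% called lower. Among 22 other natural killer receptor genes, 9 were called higher, 3 lower and 10 were not called, with a median difference of 0.52. Klrb1b, a lectin-like inhibitory receptor, had 5.40 and 5.22 in brain DC, against -0.09, -0.24 and -0.01 in monocytes. Klrb1b rose by 5.42 ± 0.14 (limma adjusted p = 9.83e-07), and its 5 probe sets ranged over differences of 3.76 to 6.94. Klra17 (Ly49Q, known on plasmacytoid DC and myeloid cells) rose by 3.72 ± 0.22 (limma adjusted p = 2.8e-05). Klra5, a member of the same Ly49 family, rose by 3.14 ± 0.16 (limma adjusted p = 1.64e-05). Klrb1f, a close relative of Klrb1b, went the other way, with -1.75 and -1.26 in brain DC, against 1.67, 2.13 and 2.29 in monocytes. Its difference was -3.53 ± 0.22 (limma adjusted p = 4.28e-05). The receptor list thus moved in both directions.

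The partner chains of CD94 differed far less than Klrd1. Klrc1, which encodes the inhibitory partner NKG2A, had 0.28 and 0.34 in brain DC, against -0.22, -0.02 and -0.09 in monocytes. Its difference of 0.42 ± 0.13 was called (limma adjusted p = 0.0375), but not when any 1 of the 5 arrays was left out (limma adjusted p between 0.0534 and 0.117), nor with array medians set equal (0.0536) or the replicate number as a block (0.0875). Klrc1 has 2 probe sets, with differences of -0.20 and 1.05. Klrc2 and Klrc3, for the partners NKG2C and NKG2E, had differences of -0.19 and 0.17 and were not called. Klrb1c, which encodes the natural killer marker NK1.1, was named only on a probe set shared with Klrb1b, whose difference was 0.45.

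**Figure D3:**
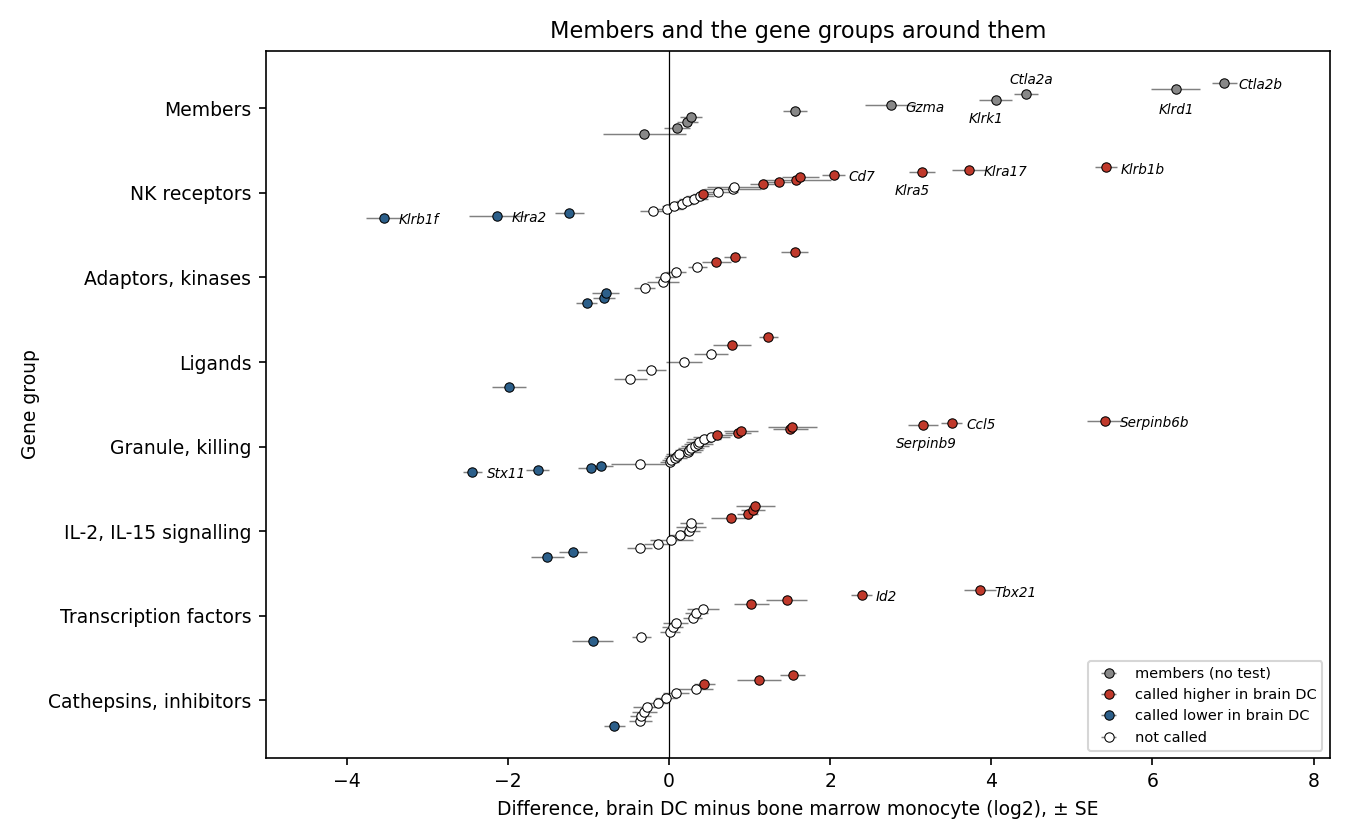
Difference in log2 value, brain DC minus monocyte, with its SE, for the 10 genes (top row, grey, no test) and for the other genes of 7 pathway lists, 1 point a gene. Red points were called higher and blue points lower by limma, and white points were not called; each list holds genes on both sides of 0.

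Of 11 adaptor and kinase genes that carry the receptors' signals, 3 were called higher, 3 lower and 5 were not called, with a median of -0.04. The adaptors that pair with activating receptors differed little. Tyrobp (DAP12) had a difference of -0.30 ± 0.13 and Fcer1g one of -0.08 ± 0.20, neither called. Hcst (DAP10), the adaptor of NKG2D, had a difference of 0.59 ± 0.18 (limma adjusted p = 0.0416). With brain DC replicate 1 left out, limma's adjusted p for Hcst was 0.154, with brain DC replicate 2 left out 0.0913, and with either of the first 2 monocyte arrays left out 0.0654 and 0.072, none of them a call; with array medians set equal it was 0.0528. The kinase Fyn rose by 1.56 ± 0.17 (limma adjusted p = 0.000514), and the kinase Syk had a difference of -1.02 ± 0.13 (limma adjusted p = 0.001). Of 7 genes for receptor ligands, 2 were called higher, 1 lower and 4 were not called, with a median of 0.19. Pvr, a ligand of CD226, rose by 1.23 ± 0.12 (limma adjusted p = 0.000282), and Clec2i, a ligand of Klrb1 receptors, had a difference of -1.98 ± 0.21 (limma adjusted p = 0.000441). Cd48, the ligand of CD244, rose by 0.78 ± 0.23 (limma adjusted p = 0.0346), but limma's adjusted p was 0.187 with brain DC replicate 1 left out, and 0.0682 and 0.0694 with monocyte array 1 or 2 left out. H2-T23, which encodes Qa-1, was named only on probe sets shared with a pseudogene, whose differences were 0.21 and 0.79.

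Of 26 other granule and killing genes, 8 were called higher, 4 lower and 14 were not called, with a median of 0.30. Of the 8 other granzymes, Gzmm was called higher, with 0.60 ± 0.18 (limma adjusted p = 0.0385), a call that did not hold with either brain DC array, monocyte array 2 or monocyte array 3 left out (limma adjusted p between 0.0697 and 0.159) or with the replicate block (0.0962). The 7 others (Gzmc, Gzmd, Gzme, Gzmf, Gzmg, Gzmk and Gzmn) had differences between 0.01 and 0.53 and were not called. The 2 serpins with the widest differences were Serpinb6b, with 4.27 and 3.52 in brain DC, against -1.74, -1.40 and -1.40 in monocytes, and Serpinb9, the inhibitor of granzyme B. Serpinb6b rose by 5.41 ± 0.23 (limma adjusted p = 7.24e-06) and Serpinb9 by 3.15 ± 0.19 (limma adjusted p = 3.15e-05). Ccl5, a chemokine that cytotoxic cells store and release, rose by 3.51 ± 0.13 (limma adjusted p = 4.02e-06). Srgn, the proteoglycan core of granules, rose by 1.51 ± 0.21 (limma adjusted p = 0.00162). Stx11, a membrane fusion protein needed for granule release, fell, with 0.31 and 0.40 in brain DC, against 2.81, 2.84 and 2.74 in monocytes. Its difference was -2.44 ± 0.12 (limma adjusted p = 1.41e-05). The other genes called lower were Lamp1, Rab27a and Lyst, and the release genes Unc13d and Stxbp2 were not called, with differences of 0.25 and 0.27.

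Of 13 other genes of interleukin 2, 15 and related signalling, 4 were called higher, 2 lower and 7 were not called, with a median of 0.25. Il2ra, the alpha chain of the interleukin 2 receptor, had a difference of 0.14 ± 0.13 and was not called, and Il2rg was not analysed here. Stat4 rose by 1.07 ± 0.24 (limma adjusted p = 0.0127), a call lost without brain DC replicate 2 (0.0713), while the kinase Jak1 had a difference of -1.51 ± 0.20 (limma adjusted p = 0.0012). The other gene called lower was Stat5b, with -1.19 ± 0.17 (limma adjusted p = 0.00179). Of 12 transcription factors of natural killer cells, 4 were called higher, 1 lower and 7 were not called, with a median of 0.32. Tbx21, which encodes T-bet, had 2.70 and 3.37 in brain DC, against -0.82, -0.74 and -0.92 in monocytes, and rose by 3.86 ± 0.20 (limma adjusted p = 1.85e-05). Eomes, its relative, had 0.02 and -0.39 in brain DC, against -0.33, -0.24 and -0.23 in monocytes, with a difference of 0.08 ± 0.15 (not called). Tbx21 thus separated the groups and Eomes did not. Nfil3 rose by 1.46 ± 0.25 (limma adjusted p = 0.00363). Id2 rose by 2.39 ± 0.14 (limma adjusted p = 2.56e-05), and Runx3, a RUNX factor, by 1.02 ± 0.21 (limma adjusted p = 0.00877). The call of Runx3 was lost without brain DC replicate 2, where its difference was 0.82.

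Beside the Ctla2 genes, 12 cysteine cathepsins and their inhibitors gave 3 called higher, 1 lower and 8 not called, with a median of -0.09. Cst3, a secreted cathepsin inhibitor, rose by 1.53 ± 0.16 (limma adjusted p = 0.000355), and Ctsl, the protease that Ctla2a inhibits, had a difference of -0.68 ± 0.13 (limma adjusted p = 0.00564). Ctsz rose by 1.11 ± 0.27 (limma adjusted p = 0.0172), a call lost without brain DC replicate 2 (0.0856).

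Genes next to the 10 in gene order were read as well, with order alone taken from the reference and genes without a value skipped. On chromosome 6 the order ran Olr1, Tmem52b, Gabarapl1, Klre1, Klrd1, Klrk1, Klrc3, Klrc2, Klrc1 and Klra17. Klre1, a partner receptor chain, had a difference of 1.58 ± 0.43 (limma adjusted p = 0.0258) on the one side of Klrd1 and Klrk1, while Klrc3 and Klrc2 on the other side were not called. The difference of Klre1 was 0.71 without brain DC replicate 1 and 2.45 without brain DC replicate 2, and with any 1 monocyte array left out it was not called (limma adjusted p between 0.0602 and 0.0649). Farther out, Gabarapl1 rose by 1.28 ± 0.21 (limma adjusted p = 0.00325), and Klrc1 and Klra17, given above, were called higher. Of the 7 neighbours of Klrk1 outside the set, 4 were called higher and 0 lower. Of the 7 neighbours of Klrd1 outside the set, 3 were called higher and 1 lower. The lower one was Olr1, with -1.96 ± 0.28 (limma adjusted p = 0.00173). Over all genes, 16.9% were called higher and 16.9% lower. Gzma lies next to Gzmk, which had 0.24 ± 0.16 and was not called. Of the 8 neighbours of Gzma, 0 were called higher and 1 lower, Snx18, with -1.61 ± 0.24 (limma adjusted p = 0.00194). Gzmb lies beside Gzmc, Gzmf, Gzmn and Gzmg, none of them called. Of the 8 neighbours of Gzmb, 0 were called higher and 1 lower, Cenpj, with -1.17 ± 0.28 (limma adjusted p = 0.0149). Around Nkg7, 3 of 8 neighbours were called higher and 0 lower, and around Il2rb 2 of 8 and 0. Around Prf1, 1 of 8 was called higher and 1 lower, and around Ncr1 0 of 8 and 1. Near Ctla2b and Ctla2a on chromosome 13, 4930486L24Rik, to which no role is given here, rose by 1.23 ± 0.16 (limma adjusted p = 0.000953) and Dapk1 by 0.60 ± 0.12 (limma adjusted p = 0.00681), and the neighbours Tpbpb, Tpbpa and Ctsj were not called.

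**Figure D4:**
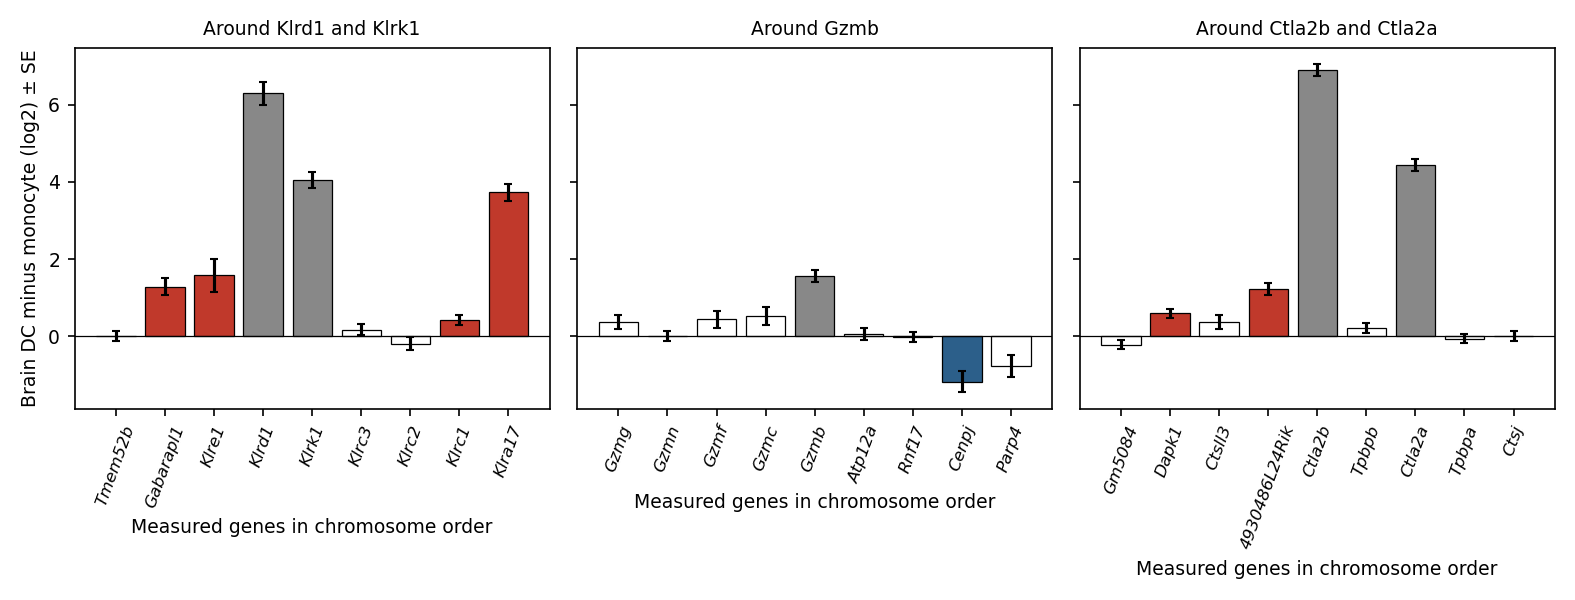
Difference in log2 value, brain DC minus monocyte, with its SE, for neighbouring genes in chromosome order around Klrd1 and Klrk1, Gzmb, and the Ctla2 genes; distances are not drawn. Bars beside Gzmb stay well below it. Grey bars are genes of the set (no test), red bars genes called higher by limma, blue bars genes called lower and white bars genes not called.

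The genes whose 5 array values lay nearest to the widest differences of the set were named by Euclidean distance over the 5 arrays, after subtraction of the monocyte mean, among 18183 other genes. For Ctla2b they were Ttr, the thyroid hormone carrier made by choroid plexus (0.54), Hepacam2 (0.70) and the complement gene C1qb (1.03). For Klrd1 they were C1qb (0.64), P2ry14 (0.87) and Sult1a1 (1.06). All of these genes share the same 5 arrays, and the measure takes in the size of the group difference.

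Markers of other cells were set beside these results, with 16.9% of all genes called higher and 16.9% called lower. The 7 natural killer markers outside the set were also counted in the pathway lists above. Of these 7 markers, 3 were called higher (Tbx21, Klre1 and Klra8) and 0 lower. The mean of the 7 was 0.80 and 0.78 in the brain DC arrays, against -0.33 to -0.24 in monocyte arrays. Tbx21 was the highest of the 7 in brain DC, at 2.70 and 3.37. With the less specific probe sets (names ending in _x_at or _s_at) left out, 2 natural killer markers were called higher. The other one of the 3 had no probe set left under this setting. Of 15 T cell markers, 5 were called higher (Cd3d, Cd5, Cd6, Cd8a and Il7r) and 0 lower, with means of -0.01 and 0.01 in brain DC, against -0.47 to -0.36 in monocytes. Without brain DC replicate 1, 3 of these 5 T cell calls were left, those of Cd5 (limma adjusted p = 0.073) and Cd6 (limma adjusted p = 0.0814) being lost. Cd6 was also not called without monocyte array 1 or 2, and Cd3d was not called without brain DC replicate 2, without any 1 monocyte array or with the replicate block (limma adjusted p = 0.11). B cell markers had 1 of 8 called higher, mast cell and basophil markers 3 of 10, plasmacytoid DC markers 4 of 8, endothelial markers 7 of 13 and microglial markers 6 of 7, with 0 lower in each of these lists. Without brain DC replicate 1 the mast cell and basophil count was 0 (Cpa3, Hdc and Gata2 all lost) and the endothelial count 4, and without monocyte replicate 1 the mast cell and basophil count was 1 and the B cell count 2. The mast cell and basophil count was also 1 without monocyte replicate 3. The microglial list had a median difference of 2.09 and means of 1.61 and 1.43 in brain DC, against -0.75 to -0.50 in monocytes. Centred values cannot show which of these markers are absent. The brain DC gate takes CD45hi CD11c+ cells. Microglia are known as CD45 low and endothelial cells as CD45 negative, but whether any passed the gate was not tested. The labels do not say whether Lin covers T or natural killer cells. The part of natural killer, T cell, microglial or endothelial RNA in the differences of the 10 genes was not tested.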

How the data were processed

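Gene expression was measured in 5 sorted cell samples, 1 array each, from 5 ug of total RNA. The deposited values were made by the authors with RMA, as the submitters' processing notes have it, and their range led to reading them as log2 values. Each probe set is centred on a baseline that the sources used here do not give, and array medians lay between -0.05 and 0.00. Signal over background cannot be read from centred values, so no filter on dim probes was applied, and the number of arrays limits the precision.

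Of 45101 probe sets, 64 were controls, 34945 had 1 symbol, 932 had several and 9160 had none in the platform annotation. By Entrez identifier, 34741 of those with 1 symbol were found in a RefSeq gene table of GRCm38.p6, and 0 symbols changed. A gene's value is the average of its probe sets with 1 symbol (18193 genes, 9010 with more than 1). Groups were compared in limma 3.58.1 under R 4.3.3 (lmFit and eBayes, no covariate, Benjamini-Hochberg over all genes, threshold 0.05). Residual degrees of freedom were 3 and prior ones 4.43. With 2 and 3 arrays, 0.1 is the smallest p of an exact permutation test, so none is given. In 5 simulated data sets of this size (18193 genes, 200 changed), limma called 66.6% of changes of 1 and 99% of changes of 2. Of its calls, 5.29% were unchanged genes. The draws were independent between genes and arrays, and far fewer genes were changed than the 3068 called higher and 3083 called lower here. These rates therefore need not hold for the measured arrays. Windows were aligned with Biopython 1.88.

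The members and lists were chosen with earlier results of these data known. The lists named 215 genes, of which 184 were measured. Named were all 10 members, the nearest genes, and defining genes such as Eomes, Tyrobp and Klrc1 whatever their value. In each list, up to 4 called genes with the largest size of difference (3 for markers) were eligible, and not all of them are named. Other names, among them granzymes, neighbours and genes with a wide gap between brain DC arrays, were chosen after their values were seen. Same-numbered arrays of the groups deviated together with correlations of 0.04 and 0.09, and the labels tie them only by number. Alternatives were array medians set equal, quantile normalisation, the median of probe sets, leaving out less specific probe sets, robust eBayes, a replicate block, each probe set on its own, and leaving out each array.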

Additional observations from a re-analysis of the deposited data

Results flagged for a closer look

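The probe set annotated to both Ctla2b and Ctla2a was left out of the gene values because it names more than 1 gene. It carried a signal of its own, with a mean difference of 4.84 on the log2 scale between brain DC and monocyte arrays. That lay between the differences of Ctla2b (6.89) and Ctla2a (4.43). No test was run on it.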

How the results depend on the processing

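Setting array medians equal gave 2 natural killer transcription factors called lower in place of 1, and 2729 genes called higher and 3243 lower in place of 3068 and 3083. Fitting each probe set on its own gave 4704 called higher and 5865 lower, over more features. Leaving out 1 array at a time moved the median difference of the 10 genes between 1.93 (without brain DC replicate 1) and 2.38 (without brain DC replicate 2). The same step gave 1 to 3 ligand genes called higher (1 without brain DC replicate 1 or either of monocyte arrays 1 and 2) and 1 to 2 called lower (2 without brain DC replicate 1). It gave 2 to 4 interleukin signalling genes called higher (2 without brain DC replicate 2), 1 to 3 cathepsins and inhibitors called higher (1 without brain DC replicate 2) and 0 to 1 transcription factors called lower (0 without either brain DC array or either of monocyte arrays 1 and 2). Beyond the smaller number of samples, the cause was not tested. Leaving out a brain DC array leaves 1, assumed to vary like the monocytes. With the replicate number as a block, 2513 genes were called higher and 3006 lower, and the median of the 10 genes was 2.19; the numbers are not known to pair samples. The other counts of the 7 pathway lists stayed within 1.5 times under these settings. Counts of the marker lists under them were added after seeing the data: with 1 array left out, T cell markers called higher ranged from 3 to 4, mast cell and basophil markers from 0 to 2, endothelial markers from 4 to 6, and natural killer markers from 2 to 4. Lower calls in the marker lists appeared too with 1 array left out, such as 1 T cell marker without monocyte replicate 1. Of differences that were not called, Nkg7, Ncr1, Eomes and Fcer1g are examples that changed sign with 1 array left out, Ncr1 at -0.03 without monocyte replicate 2. Signal over background, and so which low genes are measured at all, cannot be read from centred values.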
